A study of Homo sapiens with 9 samples.

Results

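The genes described here are those of retinoid handling and signalling in the series, namely the retinol carriers RBP2 and RBP4, the retinoic acid carriers CRABP1 and CRABP2, the retinoic acid receptors RARA, RARB and RARG, and the enzymes CYP26A1 and DHRS3. They were taken from the table of all genes by symbol, so 9 symbols were sought among 24204 listed. Lines were present for 8 of them, and CRABP1 was not analysed here. The set was selected on these same libraries, with the difference between TRIB3 knockdown and control cells already known for some members. For the members, values against the control hairpin are therefore given as a description with no p-value, any count of members called against it stands only beside the share of all genes called, and tests are kept for the comparison of the knockdown hairpins with each other and for genes outside the set.

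The cells were HepG2, an established line from a human liver cancer that makes many hepatocyte plasma proteins. Cells carried a lentivirus with a control short hairpin RNA (shCtrl), a first hairpin against TRIB3 (shTRIB3-1) or a second (shTRIB3-2), and all 3 groups had gone through infection and puromycin selection, so a response to those steps is shared by every library. TRIB3 encodes a pseudokinase of the Tribbles family. Each group held 3 libraries, and the labels do not state whether these came from separate cultures, so the tests measure only the spread between these libraries. The hairpins lower TRIB3 RNA only in part, the labels name no clone after selection, and no rescue with TRIB3 is among these libraries. The labels name high-glucose medium with serum, whereas the study's methods describe RNA from glutamine-deprived cells, so the medium at harvest is uncertain.

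Values are FPKM, fragments scaled for gene length and library total, and fragment numbers recovered from them are given for low genes. Totals ran from 34206726 to 36311029 fragments per library. TRIB3, the targeted gene, averaged 66.8 FPKM with the control hairpin, 33.6 FPKM with the first hairpin and 20.5 FPKM with the second, with no overlap between the groups. All 10 of the hepatocyte and HepG2 markers looked at were listed and none was at 0, with sums of 8692 to 11273 FPKM. Most of the sum was ALB, at means of 5213, 5073 and 6645 FPKM in the 3 groups. Single markers moved either way, with APOH at 1710, 803 and 953 FPKM and APOA1 at 1125, 1738 and 1819 FPKM. In bulk RNA, fewer cells expressing a gene and less RNA per cell cannot be told apart.

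Vitamin A reaches cells mainly as retinol, carried in blood by RBP4 in complex with transthyretin. Inside cells retinol is bound by cellular retinol-binding proteins, of which RBP2 is best known from the absorptive cells of the small intestine. Retinol is oxidised to retinal and then to retinoic acid, while DHRS3 reduces retinal back to retinol. CRABP1 and CRABP2 carry retinoic acid, and CRABP2 is known to deliver it to nuclear receptors. RARA, RARB and RARG bind DNA together with retinoid X receptors at paired hexamers, and CYP26A1 breaks retinoic acid down. RARB, CYP26A1 and DHRS3 are textbook genes induced by retinoic acid, and hepatocytes are the main source of circulating RBP4.

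Promoter windows show how these genes differ in sequence. Each window covers 250 bases before to 50 bases after an annotated start (RefSeq, GRCh38.p14), and 4 are shown because RBP2 and CRABP2 had the widest differences from control and because RARB and CYP26A1 hold the paired hexamers to which retinoid receptors are classically said to bind. Capitals mark the hexamers searched on both strands, AGGTCA with its close relatives AGTTCA as well as GGGTCA and also GGTTCA, and the letters TATAAA on the strand of the gene.
RBP2, chr3:139476467-139476766, minus strand: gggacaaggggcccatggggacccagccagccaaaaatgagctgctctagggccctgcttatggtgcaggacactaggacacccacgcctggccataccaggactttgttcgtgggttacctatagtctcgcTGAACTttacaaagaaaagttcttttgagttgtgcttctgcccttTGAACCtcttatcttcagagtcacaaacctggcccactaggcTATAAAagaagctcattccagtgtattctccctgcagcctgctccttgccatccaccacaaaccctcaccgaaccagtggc
CRABP2, chr1:156705735-156706034, minus strand: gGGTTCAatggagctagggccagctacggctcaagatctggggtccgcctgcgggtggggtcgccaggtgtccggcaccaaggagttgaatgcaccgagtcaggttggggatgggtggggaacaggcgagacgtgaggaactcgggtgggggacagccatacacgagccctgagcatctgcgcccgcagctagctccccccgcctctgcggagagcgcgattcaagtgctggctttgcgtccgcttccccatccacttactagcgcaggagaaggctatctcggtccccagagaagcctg
RARB, chr3:25428013-25428312, plus strand: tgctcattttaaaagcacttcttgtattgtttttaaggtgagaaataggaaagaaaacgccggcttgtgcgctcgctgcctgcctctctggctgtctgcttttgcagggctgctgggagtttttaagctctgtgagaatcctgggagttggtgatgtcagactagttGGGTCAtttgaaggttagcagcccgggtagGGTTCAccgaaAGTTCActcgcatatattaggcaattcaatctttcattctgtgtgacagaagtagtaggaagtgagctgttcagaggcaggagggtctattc
CYP26A1, chr10:93073643-93073942, plus strand: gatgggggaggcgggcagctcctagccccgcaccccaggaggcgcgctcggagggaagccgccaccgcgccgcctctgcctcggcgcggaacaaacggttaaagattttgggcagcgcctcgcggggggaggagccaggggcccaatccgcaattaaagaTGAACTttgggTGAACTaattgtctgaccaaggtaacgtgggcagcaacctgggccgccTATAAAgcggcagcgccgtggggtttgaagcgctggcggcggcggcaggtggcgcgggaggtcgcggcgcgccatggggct

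The RARB window held a direct repeat of these hexamers with 5 bases between them, starting 53 bases before the start. CYP26A1 held another with the same spacing, starting 90 bases before it. Among 35116 promoter windows of this length, 31 (0.0883%) had that arrangement on either strand, and it occurred in 2 of the 19 windows of the 9 genes. Repeats with 1 or 2 bases between were in none of the 19 windows and in 0.131% and 0.0399% of all windows. RBP2 had single hexamers 118 and 73 bases before its start and TATAAA 31 bases before it. The CRABP2 window had a single hexamer 249 bases before its start. A hexamer was present in 38.6% of all windows and in 9 of the 19 windows of the 9 genes, so single hexamers are common. TATAAA was in 7.33% of all windows and in 5 of the 19, which belong to 3 genes (RBP2, RBP4 and CYP26A1). Because the study is about G-quadruplexes, 4 runs of at least 3 G with 1 to 7 bases between were also searched on both strands. The pattern was in 25% of all windows and in 4 of the 19 windows of the 9 genes, 1 each for RBP4, CRABP1, RARA and RARG. No window of RBP2, CRABP2, RARB, CYP26A1 or DHRS3 held it. These matches describe letters only, and no binding was measured here.

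**Figure D1:**
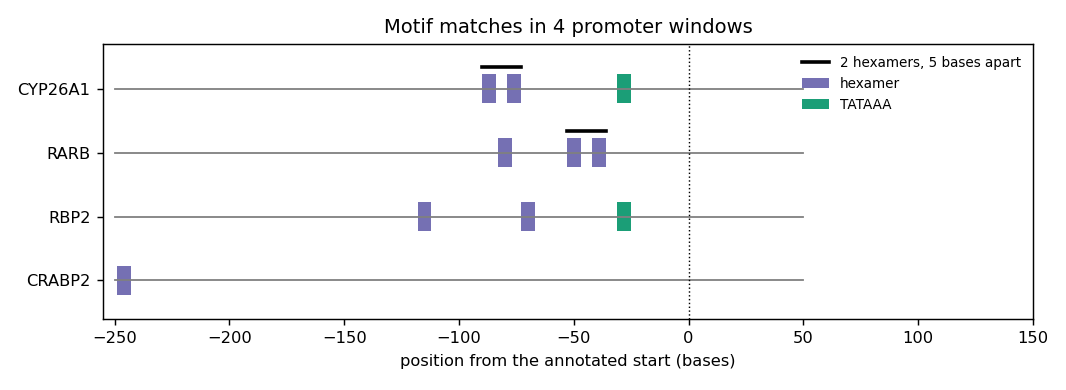
Matches of single hexamers (purple), TATAAA (green) and pairs of hexamers 5 bases apart (black bars) along the 4 promoter windows, with the position in bases from the annotated start on the x axis and 1 line per gene. Pairs were found at -53 in RARB and at -90 in CYP26A1, and RBP2 and CRABP2 held single hexamers only.

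RBP2, the carrier of retinol in intestinal absorptive cells, was nearly silent in control cells and clearly present with both hairpins. The gene spans 139452884 to 139480747 of chromosome 3, minus strand (GRCh38). The shCtrl libraries had 0.121, 0 and 0.241 FPKM, from 3, 0 and 6 fragments. With shTRIB3-1, RBP2 stood at 6.48, 5.68 and 6.25 FPKM, from 154, 135 and 151 fragments. With shTRIB3-2 it stood at 5.43, 4.51 and 4.11 FPKM, from 129, 109 and 100 fragments. All 6 knockdown libraries were above all 3 control libraries, and the shTRIB3-1 libraries were above those of shTRIB3-2. A count of 0 in 1 library still allows up to 3 fragments, which is the number seen in another control library. Over the group, the fragment rate was 51.1 times that of shCtrl with shTRIB3-1 (exact 95% interval 26.7 to 112) and 38.9 times with shTRIB3-2 (20.3 to 85.9), and these intervals cover counting error only. The ratios rest on 9 control fragments and on which control libraries are counted, which was looked at after the values were seen. Without shCtrl replicate 3 they were 102 (34.8 to 498) and 78.0 (26.5 to 380), and without shCtrl replicate 2, the library at 0, they were 33.9 (17.7 to 74.6) and 25.8 (13.4 to 57.0). On the log2(FPKM + 0.1) scale used below, which understates changes of low genes, the differences were 4.99 and 4.60 (SE 0.322 each), and 4.50 and 4.11 without the control library at 0. Of 11265 tested genes, RBP2 ranked 15 by size of rise with shTRIB3-1 and 3 with shTRIB3-2.

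CRABP2, the retinoic acid carrier, differed as widely from control as RBP2 with the first hairpin but much less with the second. It spans 156699606 to 156705816 of chromosome 1, minus strand. The shCtrl libraries had 0.240, 0.157 and 0.186 FPKM, from 9, 6 and 7 fragments. The 3 libraries of shTRIB3-1 had 10.7, 10.6 and 10.0 FPKM, from 384, 382 and 367 fragments. Those of shTRIB3-2 had 1.59, 1.83 and 1.47 FPKM, from 57, 67 and 54 fragments. The groups did not overlap, and shTRIB3-2 lay between the other groups. The fragment rate was 53.8 times that of shCtrl (exact 95% interval 35.4 to 86.2) with shTRIB3-1 and 8.39 times (5.37 to 13.7) with shTRIB3-2, for counting error only. The log2 differences were 5.17 and 2.56 (SE 0.118 each), places 14 and 74 of 11265 by size of rise.

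RBP4, the blood carrier of retinol, was the most abundant gene of the set in every group. The gene spans 93591687 to 93601744 of chromosome 10, minus strand. It stood at 437, 427 and 435 FPKM in shCtrl. With shTRIB3-1 the values were 480, 476 and 482 FPKM, and with shTRIB3-2 they were 590, 598 and 575 FPKM. The groups did not overlap and the replicates differed little, but the shifts were small beside those of RBP2 and CRABP2, with log2 differences of 0.15 and 0.44 (SE 0.0289 each). RBP4 rests on at least 20180 fragments in each library. CRABP1, the other retinoic acid carrier, spans 78340353 to 78348225 of chromosome 15, plus strand, and no value is given for it.

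**Figure D2:**
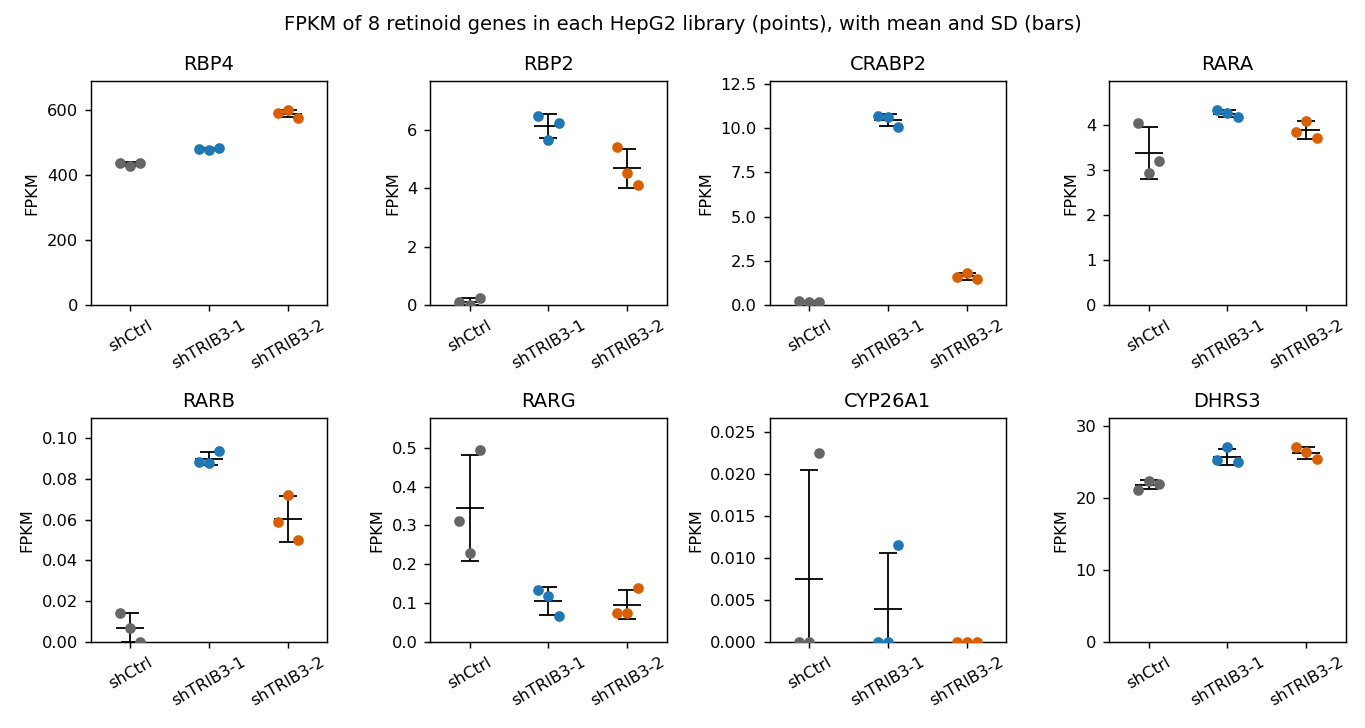
FPKM (y axis, linear and starting at 0, with its own scale in each panel) of 8 retinoid genes in the 3 groups, with 1 point per library and bars for the mean and SD of 3 libraries. RBP2 and CRABP2 leave values under 0.25 FPKM in shCtrl, CRABP2 is far higher with shTRIB3-1 than with shTRIB3-2, and RBP4, RARA and DHRS3 move within narrow ranges.

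Of the receptors, only RARA was present at more than traces. It spans 40309180 to 40357643 of chromosome 17, plus strand. RARA stood at 4.02, 2.92 and 3.19 FPKM in shCtrl. With shTRIB3-1 it had 4.32, 4.24 and 4.16 FPKM, and with shTRIB3-2 it had 3.84, 4.09 and 3.70 FPKM. All 3 shTRIB3-1 libraries were above the control libraries, whereas those of shTRIB3-2 overlapped them. The log2 differences were 0.33 and 0.21 (SE 0.0981 each). Antisense genes overlap 21.4% of the exon bases of RARA in GENCODE 44, among them RARA-AS1, and whether counting used the strand is not given consistently in the sources. RARA-AS1 averaged 0.715, 1.30 and 2.06 FPKM in the 3 groups, and its part in the RARA values was not tested.

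RARB, the receptor gene with the paired hexamers shown above, was close to 0 in control cells. It spans 24687887 to 25597932 of chromosome 3, plus strand. The fragments were 2, 1 and 0 in shCtrl, 12, 12 and 13 with shTRIB3-1, and 8, 10 and 7 with shTRIB3-2. The mean levels were 0.00699, 0.0900 and 0.0604 FPKM. No knockdown library overlapped a control library, yet 13 fragments was the most found in any library. The rate ratio to shCtrl, with intervals for counting error only, was 12.9 (exact 95% interval 4.08 to 65.3) with shTRIB3-1 and 8.64 (2.64 to 44.7) with shTRIB3-2. Without shCtrl replicate 1, which leaves 1 control fragment, these were 25.8 (4.36 to 1048) and 17.3 (2.84 to 711).

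RARG went the other way. This receptor gene, at 53210567 to 53232980 of chromosome 12, minus strand, had 0.312, 0.229 and 0.495 FPKM in shCtrl, from 39, 29 and 62 fragments. The shTRIB3-1 libraries had 16, 14 and 8 fragments and the shTRIB3-2 libraries 9, 9 and 17. The mean levels with the hairpins were 0.105 and 0.0960 FPKM. Each knockdown library was below each control library, and the hairpins overlapped. The rate ratios to shCtrl were 0.305 (exact 95% interval 0.207 to 0.441) and 0.279 (0.186 to 0.408). These intervals cover counting error only, and replicate libraries differed by more than that. RARB and RARG were under the 1 FPKM needed for testing in every library. In a fit of all 20534 genes above 0 in at least 3 libraries, RARB differed from shCtrl by 0.83 and 0.58 and RARG by -1.09 and -1.16 on the log2(FPKM + 0.1) scale.

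The retinoid-induced enzymes gave a mixed picture. CYP26A1, the hydroxylase that clears retinoic acid, spans 93073475 to 93077885 of chromosome 10, plus strand. It had 2 fragments in 1 shCtrl library, 1 fragment in 1 shTRIB3-1 library and 0 in the other libraries. For shTRIB3-2, 0 fragments over the 3 libraries allows a level of up to 0.0116 FPKM. No difference between groups was detectable at this depth. Another gene on the same strand overlaps 25.3% of its exon bases, so even these fragments are uncertain. DHRS3, which returns retinal to retinol, was well expressed and spans 12567910 to 12618210 of chromosome 1, minus strand. Its values were 21.2, 22.4 and 22.0 FPKM in shCtrl. They were 25.3, 27.1 and 25.0 FPKM with shTRIB3-1 and 27.1, 26.4 and 25.4 FPKM with shTRIB3-2. Every knockdown library was above every control library, by a log2 difference of 0.24 and 0.27 (SE 0.0410 each), and the hairpins overlapped. DHRS3 ranked 3057 and 3111 of 11265 tested genes by size of rise, so rises of this size were common.

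**Figure D3:**
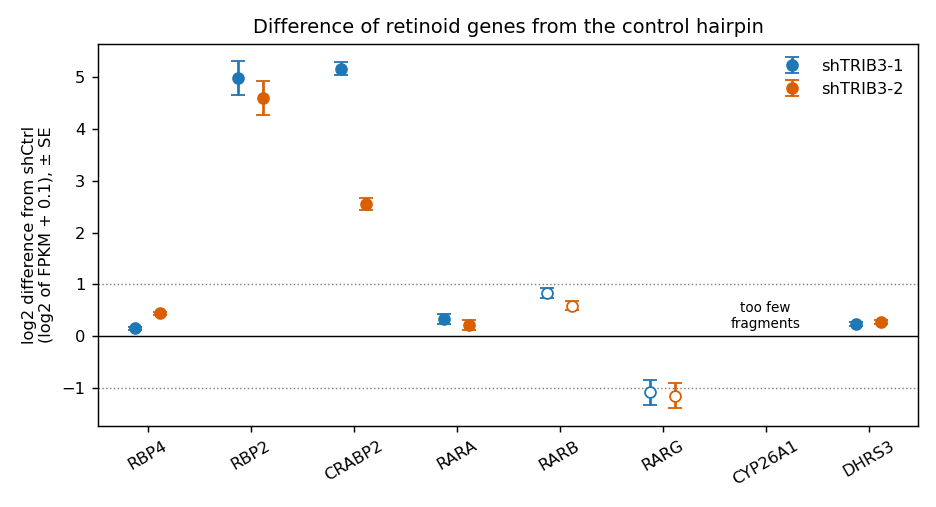
Difference of each retinoid gene from shCtrl on the log2(FPKM + 0.1) scale (y axis) with shTRIB3-1 (blue) and shTRIB3-2 (orange), with bars for 1 SE from limma and dotted lines at a difference of 1. Filled points are tested genes, open points (RARB and RARG) come from the fit of all genes above 0 in at least 3 libraries, and CYP26A1 had too few fragments. Only RBP2 and CRABP2 lie above 1, at 4.99 and 4.60 and at 5.17 and 2.56.

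Genes were tested when they reached 1 FPKM in at least 3 of 9 libraries, which 5 of the 9 members did (RBP2, RBP4, CRABP2, RARA and DHRS3). RBP2 and CRABP2 passed through the knockdown libraries alone, so a difference from control was built into their passing. Calls required an adjusted p under 0.05 together with an absolute log2 difference above 1. With shTRIB3-1, 2 members were called, both higher, where 11.5% of all tested genes were called and 5.39% were called higher. With shTRIB3-2 the same 2 members were called higher, where 12.3% of tested genes were called and 6.06% higher. No member was called lower with either hairpin, where 6.10% and 6.27% of tested genes were. These counts describe members chosen by the same contrasts and carry no weight of their own. Small differences from control were widespread. At an adjusted p under 0.05 and any size, 32.9% of tested genes were higher and 41.5% lower with shTRIB3-1. With shTRIB3-2 the shares were 35.4% and 40.5%. The share of all genes whose groups did not overlap is not given here, so the separations of single members lack that background.

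The order of levels within the set changed between the groups. FPKM is per length, so levels are compared between genes only through the lengths behind the values. Those lengths differed from the exon bases in GENCODE 44, at 6160 against 4743 for RARA and 694 against 845 for RBP2. The order of genes close in level, such as RBP2 and RARA, therefore depends on the lengths used. In shCtrl the order was RBP4, DHRS3 and RARA, at 433, 21.9 and 3.38 FPKM, then RARG, CRABP2, RBP2, CYP26A1 and RARB, all under 0.5 FPKM. The neighbours among the last 5 overlapped in their ranges. With shTRIB3-1, CRABP2 (10.4 FPKM) and RBP2 (6.14 FPKM) stood above RARA (4.24 FPKM), with no overlap between neighbours from RBP4 down to RARA. With shTRIB3-2, RBP2 (4.68 FPKM) stood above RARA (3.88 FPKM) and CRABP2 (1.63 FPKM) below it, again without overlap. RARG stood above RARB in every group, and their ranges overlapped with shTRIB3-1 only.

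**Figure D4:**
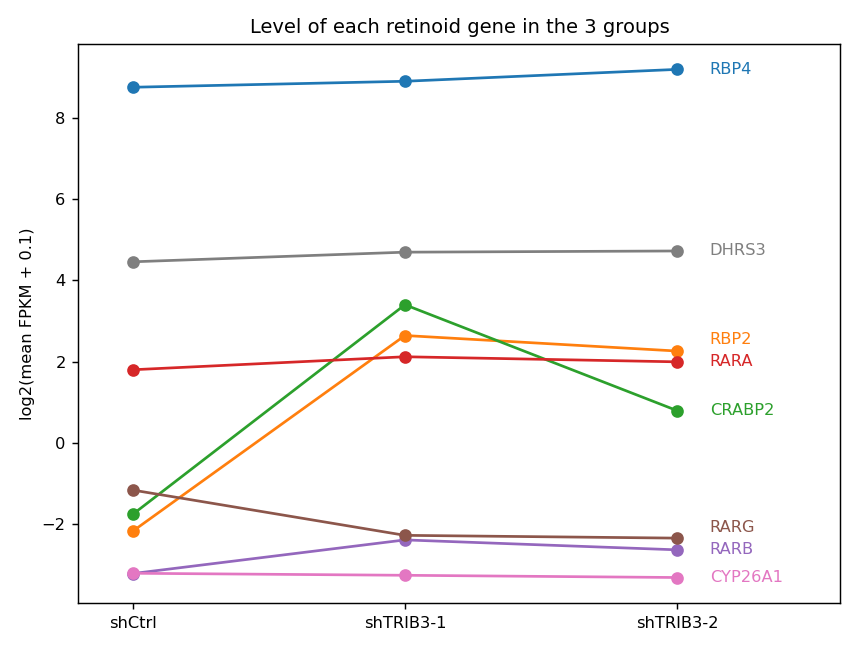
Mean level of 8 retinoid genes as log2(mean FPKM + 0.1) (y axis) in shCtrl, shTRIB3-1 and shTRIB3-2, with 1 line per gene joining the means of 3 libraries. RBP4 and DHRS3 stay at the top, RBP2 and CRABP2 cross RARA with shTRIB3-1, and RBP2 alone stays above it with shTRIB3-2.

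The hairpins were compared with each other to ask whether the members stood at the same level in both knockdowns, a contrast that makes no use of the control libraries' means. It does use the knockdown libraries, whose values against control were known for some members when the set was chosen. The contrast is therefore not independent of that choice. CRABP2 was lower with shTRIB3-2 than with shTRIB3-1 by 2.61 on the log2 scale, a difference of -2.61 (SE 0.118, 95% interval -2.87 to -2.36, limma adjusted p 1.60e-08), with 3 of 3 libraries below. It was the only member called, where 2.08% of tested genes were called and 1.79% were called lower, and it ranked 12 by size of fall among 11265 genes. RBP4 was higher with shTRIB3-2 by 0.29 (SE 0.0289, 95% interval 0.23 to 0.36, limma adjusted p 8.24e-06), short of the limit on size. At any size, 25.1% of tested genes were higher and 20.7% lower with shTRIB3-2. RBP2 differed by -0.39 (95% interval -1.09 to 0.31, limma adjusted p 0.349). The spread behind that interval is shared with the control libraries of RBP2, 1 of which is at 0. A fit of the knockdown libraries alone gave the same difference with an adjusted p of 0.00679. RARA differed by -0.13 (95% interval -0.34 to 0.09, limma adjusted p 0.319) and DHRS3 by 0.03 (95% interval -0.06 to 0.12, limma adjusted p 0.581). Among all genes above 0, RARB differed by -0.25 (limma adjusted p 0.0738) and RARG by -0.07 (limma adjusted p 0.884). TRIB3 itself was lower with shTRIB3-2 than with shTRIB3-1 by 0.71 on the log2 scale, with a difference of -0.71 (SE 0.0301, limma adjusted p 9.54e-09). The level of TRIB3 and the hairpin sequence differ together and cannot be told apart.

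Other genes of the retinoid pathway were read from lists of 67 genes written by role, of which 59 were listed and 34 tested. With each hairpin, 1 of these was called higher against shCtrl and 1 lower, against the 5.39% and 6.06% of all tested genes called higher and the 6.10% and 6.27% called lower. The gene called higher was TTR and the gene called lower was RARRES2. At any size, 10 were higher and 18 lower at an adjusted p under 0.05 with shTRIB3-1, where 32.9% and 41.5% of all tested genes were. With shTRIB3-2 these counts were 13 and 18, where 35.4% and 40.5% of all tested genes were. The median log2 difference of the 34 genes was -0.16 and -0.17, beside -0.06 and -0.03 over all tested genes. None of the 34 was called between the hairpins by limma, where 2.08% of all tested genes were. At any size, 11 were higher and 9 lower with shTRIB3-2 at an adjusted p under 0.05, where 25.1% and 20.7% of all tested genes were. The lists were written down from general knowledge.

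The surroundings of the CRABP2 gene were looked up after the values were seen, with starts from GENCODE 44. Within 500 kb of its start, 32 other genes were listed and 21 tested. With shTRIB3-1, 1 of these was called higher (NES) and 1 lower (IQGAP3), and with shTRIB3-2, 2 were called higher (NES and BCAN-AS1) and 1 lower (IQGAP3). Over all tested genes, 5.39% and 6.06% were called higher and 6.10% and 6.27% lower, so these counts are near the background. NES, which codes for the filament protein nestin and starts 28.4 kb from CRABP2, had log2 differences of 1.60 and 1.32 (limma adjusted p 3.55e-12 and 8.41e-12).

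By role, the uptake, transport and storage list held 7 tested genes, of which 4 were higher and 1 lower with shTRIB3-1, and 4 higher and 3 lower with shTRIB3-2, at any size. The shares over all tested genes, to be set beside the counts of each list, were 32.9% higher and 41.5% lower with shTRIB3-1 and 35.4% and 40.5% with shTRIB3-2. TTR, which codes for transthyretin, the partner of RBP4 in blood, rose from 27.9 ± 2.59 FPKM (SD, n = 3) to 59.2 ± 0.667 and 91.5 ± 1.37 by limma (log2 differences 1.08 and 1.71, SE 0.0515, adjusted p 2.06e-09 and 3.41e-11). CES1, a liver esterase that can act on retinyl esters, had the highest mean of this list and rose from 197 to 386 and 237 FPKM, by 0.97 (limma adjusted p 4.99e-11) and 0.26 (limma adjusted p 4.23e-06), short of the limit on size, although the first was 1.05 and called after median centring. Of 10 tested genes for the oxidation and reduction of retinol and retinal, none was called, and 4 were higher and 5 lower with shTRIB3-1 against 6 and 3 with shTRIB3-2. RDH12, a retinal reductase, was close to the limit with shTRIB3-2, at 0.97, and was called at 1.01 to 1.12 under 4 alternatives. The most abundant was ALDH1A1, which oxidises retinal to retinoic acid and fell from 417 to 369 and 294 FPKM, by 0.18 and 0.50 on the log2 scale (limma adjusted p 1.44e-04 and 1.17e-08).

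Of 14 tested retinoid X receptors, partners and cofactors, none was called, with 2 higher and 9 lower with shTRIB3-1 and 3 higher and 9 lower with shTRIB3-2 at any size. RXRA, the main partner of the retinoic acid receptors in liver, averaged 10.8, 10.6 and 10.6 FPKM (log2 differences -0.02 and -0.03, limma adjusted p 0.664 and 0.560). NCOA3, a receptor coactivator with the highest mean of this list, rose from 21.0 to 28.0 and 22.7 FPKM, by 0.41 and 0.11 (limma adjusted p 3.01e-07 and 0.00884). Neither gene of the breakdown list was tested, and the higher of them, CYP26B1, averaged 0.0992, 0.128 and 0.113 FPKM.

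Genes known as retinoic acid targets were mostly low in these cells, with 9 of 13 listed and 3 tested. All 3 were lower with each hairpin at any size, namely RARRES2, MEIS2 and TGM2, where 41.5% and 40.5% of all tested genes were, and 1 of them was called. RARRES2, which codes for the secreted adipokine chemerin, fell from 53.4 ± 2.78 FPKM (SD, n = 3) to 26.4 ± 0.801 and 23.6 ± 2.10, log2 differences of -1.01 and -1.18 (SE 0.0581, limma adjusted p 1.17e-08 and 2.35e-09). The fall with shTRIB3-1 was at the edge of the limit on size and was -0.97 without shCtrl replicate 3 and -0.99 without shTRIB3-1 replicate 2. MEIS2, a homeobox transcription factor, differed by -0.56 and -0.41 (limma adjusted p 4.49e-05 and 5.37e-04). TGM2, a transglutaminase, differed by -0.21 and -0.38 (limma adjusted p 0.0262 and 7.24e-04).

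**Figure D5:**
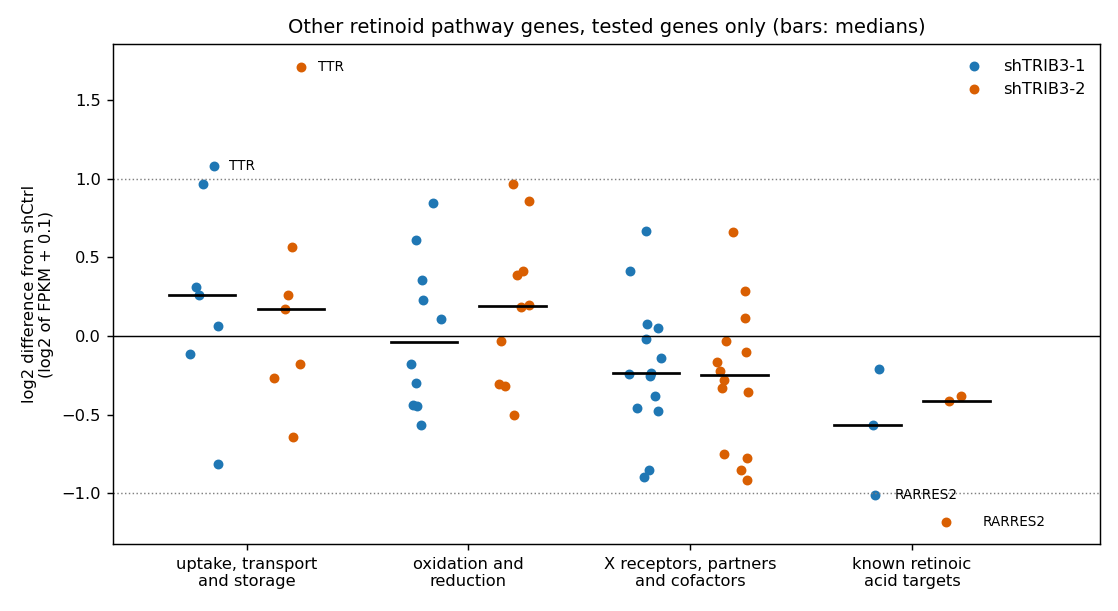
Difference from shCtrl on the log2(FPKM + 0.1) scale (y axis) of the 34 tested pathway genes outside the set, by list and hairpin, with 1 point per gene, black bars for medians and dotted lines at a difference of 1. TTR alone lies above 1 and RARRES2 alone below -1 with both hairpins.

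The genes most alike to RBP2 and CRABP2 in pattern were found by the Euclidean distance between profiles of log2(FPKM + 0.1) over 9 libraries, after taking off the shCtrl mean. For RBP2 they were C11orf86 (distance 1.89), TIE1 (2.18) and CYP17A1 (2.25). C11orf86 averaged 0.238, 5.63 and 8.85 FPKM in the 3 groups, whereas TIE1, an endothelial receptor kinase, averaged 0.301, 7.94 and 5.78 FPKM. CYP17A1, a steroid hydroxylase, averaged 0.312, 9.03 and 5.20 FPKM. For CRABP2 they were the noncoding LINC00659 (0.671), ARL14EPL (0.825) and CRYAB (0.966). CRYAB, a small heat shock protein, averaged 2.80, 124 and 23.5 FPKM, and LINC00659 averaged 0.237, 12.1 and 1.96 FPKM. ARL14EPL was at 0 in the control libraries and averaged 4.01 and 0.642 FPKM with the hairpins. Likeness was read from the same contrasts that chose RBP2 and CRABP2 and is a description.

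Because RBP2 is best known from the intestine, 14 genes of the absorptive enterocyte were read beside it, and 7 were tested. With shTRIB3-1, 3 were called higher and none lower, and with shTRIB3-2 the counts were again 3 and 0, where 5.39% and 6.06% of all tested genes were called higher. DPP4 and ALPI were under 1 FPKM in every control library and were tested only through the knockdown libraries, so a difference was built into their testing and their counts carry no weight. DPP4, a brush border peptidase, averaged 0.529 FPKM in shCtrl and 7.69 and 2.43 FPKM with the hairpins. MTTP, which loads lipid onto apolipoprotein B, rose from 24.5 to 66.8 and 64.1 FPKM (1.44 and 1.39, limma adjusted p 5.53e-11 and 5.71e-11). The intestinal alkaline phosphatase ALPI, at 0.801, 6.61 and 1.10 FPKM in the 3 groups, was called higher with shTRIB3-1, and the peptidase MEP1A, at 3.14, 4.89 and 8.77 FPKM, with shTRIB3-2. APOB had the highest mean and fell from 840 to 678 and 786 FPKM, by 0.31 and 0.10 on the log2 scale (limma adjusted p 3.21e-06 and 0.0186). The defining intestinal genes SI, LCT and CDX2 had at most 3 fragments in any library. The other untested genes went both ways. CDH17, an intestinal cadherin, had 22, 132 and 220 fragments summed over the libraries of the 3 groups (means of 0.0538, 0.338 and 0.558 FPKM). SLC15A1, a peptide transporter, had 2, 24 and 17. FABP2 was lower than control, with 157, 75 and 111 fragments, and so was MGAM, with 10, 2 and 3. The tested genes not yet named were VIL1, at 61.8, 74.4 and 88.9 FPKM, and ANPEP, at 76.0, 61.9 and 82.1 FPKM. DPP4, MTTP and APOB are also expressed in hepatocytes, and these genes' part in the RBP2 values was not tested.

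Markers of other cell types were mostly at or near 0. The 8 listed of 10 markers of hepatic stellate cells and fibroblasts, cells that store retinoids in liver, summed to 0.468 to 0.581 FPKM in shCtrl, 1.22 to 1.28 with shTRIB3-1 and 0.335 to 0.456 with shTRIB3-2. Most of the sum with shTRIB3-1 was DES, at 0.884 to 1.05 FPKM, while COL1A1, COL1A2 and COL3A1 were under 0.1 FPKM in every library and DCN had at most 1 fragment. RGS5 averaged 0.259, 0.125 and 0.119 FPKM in the 3 groups and PDGFRB averaged 0.157, 0.0758 and 0.104 FPKM. Both were lower than control on average with each hairpin. LUM had 1, 7 and 3 fragments summed over each group. Of 8 leukocyte markers 7 were listed, and their sums of 30.1 to 39.3 FPKM over the 9 libraries were nearly all CD68, while PTPRC had at most 1 fragment in a library. CD14 was lower with the hairpins, at means of 1.10, 0.259 and 0.321 FPKM in the 3 groups. CD163 was higher, with 3, 54 and 18 fragments summed over each group. CD79A averaged 0.219, 0.219 and 0.655 FPKM. CD3E had at most 2 fragments in a library and LST1 at most 1. The 6 endothelial markers summed to 0.603 to 0.784 FPKM in shCtrl, 6.83 to 7.01 with shTRIB3-1 and 3.37 to 3.63 with shTRIB3-2. Nearly all of that difference was LYVE1, at 0.389, 6.71 and 3.19 FPKM in the 3 groups. LYVE1 was under 1 FPKM in every control library and so tested only through the knockdown libraries. The rest of the list was low and went both ways. VWF averaged 0.0892, 0.103 and 0.167 FPKM, higher than control on average with both hairpins. PECAM1 averaged 0.181, 0.128 and 0.116 FPKM, lower on average with both. Summed over each group, KDR had 0, 5 and 1 fragments and STAB2 had 3, 1 and 1. CDH5 had at most 1 fragment in a library. The part of these markers in the RBP2 and CRABP2 values was not tested.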

How the data were processed

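RNA-seq was measured in 9 HepG2 libraries, grouped by their labels. The values deposited by the authors are FPKM, with a line for each symbol and a column for each library. The submitters' processing notes name HTSeq, R 3.2.0 and GRCh38, while the study's methods name STAR and DESeq2. The labels and the methods also name different library kits, only the latter strand-specific, so strand use is uncertain, and FPKM keeps any shift in composition. The authors' table was used without other normalization. Whole fragments were recovered from the FPKM, since values of a gene are whole fragments over 1 length and each library's total. Of 172769 values above 0, 100% were within 0.02 of whole. Totals ran from 34206726 to 36311029, so low genes are limited by counting. Replicate pairs differed by more than sampling noise (chi-square per degree of freedom 3.13 to 7.54).

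Tests used limma 3.58.1 in R 4.3.3 on log2(FPKM + 0.1) with 3 group means, empirical Bayes and a mean-variance trend, two-sided, adjusted by Benjamini-Hochberg over 11265 genes with at least 1 FPKM in at least 3 libraries. The steps were tested on simulated data. Named were all members, pathway genes called with both hairpins, the highest gene of each list, the 3 genes most alike to RBP2 and to CRABP2, and TRIB3. RXRA, RDH12, RARA-AS1, MEIS2, TGM2, the marker and enterocyte genes other than APOB, and the chromosomal neighbours of CRABP2 were named after their values were seen. The members and lists were chosen with earlier results of these data known. A further gene of the pathway lists is not reported here. Promoters and gene positions came from RefSeq (GRCh38.p14) and GENCODE 44. Alternatives were another pseudocount, no filter, median centring, TPM, voom on whole fragments, fits of 2 groups, a replicate block and leaving out each library.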

Additional observations from a re-analysis of the deposited data

Results flagged for a closer look

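CRABP2 differed between the knockdown hairpins in their effect against the same control. Its log2 difference between shTRIB3-2 and shTRIB3-1 was -2.61 (SE 0.118, limma adjusted p 1.60e-08), from 10.4 ± 0.351 and 1.63 ± 0.188 FPKM (SD, n = 3 each). All 3 shTRIB3-2 libraries were below all 3 shTRIB3-1 libraries. As said above, this contrast is not independent of how the set was chosen, and CRABP2 was tested only through the knockdown libraries. No group here has more than 3 libraries, so single libraries were not tested for standing apart.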

How the results depend on the processing

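Adding 1 in place of 0.1 gave 780, 888 and 84 called genes for shTRIB3-1, shTRIB3-2 and the hairpin contrast, against 1294, 1389 and 234. Keeping all 20534 genes above 0 in at least 3 libraries gave 2019 and 427 called genes for the first and last of these. The count of all genes called with shTRIB3-2 in that set is not given here. That wider set also gave 4 called pathway genes with each hairpin in place of 2, adding ADH1A and DHRS9 with shTRIB3-1 and ADH1A and ALDH8A1 with shTRIB3-2, and 3 called members in place of 2 with each hairpin, adding RARG as a description. The log2 differences from shCtrl, also a description, ran over the alternatives from 2.67 to 6.09 and 2.34 to 5.70 for RBP2 and 3.26 to 5.67 and 1.14 to 3.00 for CRABP2. The difference of RBP2 between hairpins passed the threshold with a pseudocount of 1 (-0.33, adjusted p 0.0124) and with the 2 knockdown groups alone (-0.39, adjusted p 0.00679), and elsewhere its adjusted p ran from 0.0551 to 0.574. CRABP2 remained the member called between the hairpins in all settings. RARRES2 lost its call with shTRIB3-1 under a pseudocount of 1 (-0.99), median centring (-0.93) and without shCtrl replicate 3 (-0.97) or shTRIB3-1 replicate 2 (-0.99). CES1 gained a call with shTRIB3-1 under median centring (1.05), and RDH12 gained one with shTRIB3-2 under median centring (1.02), voom (1.01) and without shCtrl replicate 2 (1.02) or shTRIB3-2 replicate 2 (1.12). A pseudocount of 1 left 1 called pathway gene with shTRIB3-1, and leaving out single libraries gave 1 to 2. RBP4 with shTRIB3-1 differed from shCtrl by 0.09 by TPM and 0.23 after median centring. Median centring moved all genes by 0.08, 0.05 and -0.03. The count model, voom on whole fragments, called 1364, 1469 and 270 genes. Same-numbered libraries did not deviate together (r -0.074 to 0.093). No shared shift by number was seen, which does not settle whether such libraries were prepared together. The replicate block gave 1295, 1389 and 234 called genes and the same members and pathway counts (2, 2 and 1, and 2, 2 and 0). Leaving out each control library, an alternative chosen after seeing the data, gave fragment rate ratios of 33.9 to 102 and 25.8 to 78.0 for RBP2, 49.1 to 60.9 and 7.65 to 9.49 for CRABP2, 8.61 to 25.8 and 5.77 to 17.3 for RARB and 0.261 to 0.390 and 0.238 to 0.356 for RARG. Counting limits RARB, RARG and CYP26A1, which had at most 13, 62 and 2 fragments in a library.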
